A study of Homo sapiens with 8 samples.

Results

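This account covers the hnRNP, SR and core spliceosomal protein genes of HEK293T cells under acute arsenite stress. Members were taken by symbol, as coding genes whose names start with HNRNP, SRSF, SNRNP, SNRP, SF3A, SF3B or PRPF followed by a letter or digit. That rule found 73 of 19964 coding genes, namely 20 hnRNP genes, 12 SR genes and 41 genes of the snRNP group (all other prefixes). With a mean of at least 10 counts in each assay, 68 were measured (17, 11 and 40), beside 10273 coding genes in all. HNRNPA1L2, HNRNPCL1, HNRNPH2, SRSF10 and SNRPN did not pass. HNRNPH2 had between 75 and 226 mRNA-seq reads and 6 to 13 footprints per library, all on the leader. Its CDS held 0 reads of either assay in every library, so its translation could not be measured. SNRPN and HNRNPCL1 had 0 reads throughout. Reads that matched more than 1 gene were discarded by the authors, so genes with near-identical copies are seen only through the reads that tell them apart, and their levels are uncertain. HNRNPA1, which has many pseudogenes, passed but held only 25 and 472 CDS footprints in the control libraries.

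HEK293T is a human embryonic kidney line that carries the SV40 large T antigen. Cells received either 40 µM sodium arsenite, which causes oxidative stress and phosphorylation of the initiation factor eIF2, or vehicle (control) for 30 min. Each of the 4 groups (ribo-seq and mRNA-seq, control and arsenite) had 2 replicates, giving 8 libraries, all from cells of 1 line harvested with cycloheximide present in the wash but not in the medium. Per the methods, each cleared lysate was divided between the assays, so its ribo-seq and mRNA-seq libraries are not independent samples. The mRNA level here is that of RNA selected by its poly(A) tail from such lysates. The replicates were biological replicates per the study's methods and figure legends, and p-values rest on 2 of them per group. Ribo-seq sequences the mRNA fragments that ribosomes protect, and its CDS reads give ribosome occupancy. Translation efficiency (TE) is ribosome occupancy divided by mRNA level.

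Reads on the transcripts used numbered 1023774 to 7268542 in ribo-seq and 3988153 to 21690319 in mRNA-seq, with replicate 1 the shallower in each group. Summed mRNA levels of the 7 genes listed as HEK293T markers were 461 to 661 cpm (read counts scaled to library size), although PAX2 among them stayed at or below 3.88 cpm. The 4 markers of leukocytes, hepatocytes, endothelium and fibroblasts summed to 11.5 to 14.5 cpm, nearly all of it COL1A1. All values are relative within a library, so a translation change shared by all mRNAs does not appear in them, and in such bulk lysates fewer expressing cells and less RNA per cell cannot be told apart. The study reports a general fall in translation with arsenite, so a rise in footprints or TE here is relative to the other genes.

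Splicing removes introns in the spliceosome, which is built from the U1, U2, U4, U5 and U6 small nuclear ribonucleoproteins (snRNPs). SR proteins bind exonic sequences and recruit snRNPs through domains rich in arginine and serine, and hnRNP proteins coat nascent transcripts and often act against inclusion of an exon. Many members of these families are abundant nuclear proteins, several shuttle to the cytoplasm, and many SR and hnRNP genes control their own mRNA through exons that introduce a premature stop codon.

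The 5′ end of an mRNA can bear on its translation under stress. In the terminal oligopyrimidine (TOP) mRNAs, typified by those of ribosomal proteins, the first base is C and a run of pyrimidines follows. Annotated RefSeq starts (GRCh38.p14) were found for 60 of the 68 splicing genes, SF3B14 under its current symbol SF3B6. A start with C at the first base and at least 4 further C or T, read on the transcribed strand only, was present in 5 of these 60 genes (8.33%), against 7.87% of 8560 tested genes with a start sequence. Their windows, 15 bases before and 15 from the start, are shown because 4 of the 5 are genes whose TE changes are described below, and capitals mark the pyrimidine run.
HNRNPA0 (chr5:137754349-137754378, minus strand): cgcgcgttcagcggcCTCTTTgtgtggtgc
SNRPD2 (chr19:45691939-45691968, minus strand, 1 of 3 annotated starts): aagaggaagtcccgcCTCTCTCTCCTCagg
SRSF9 (chr12:120469734-120469763, minus strand): tttgcctccgccgacCCCTTCgcttccgct
SNRPA (chr19:40751188-40751217, plus strand): aatctctcgagagttCTCTCCgcacgcggg
SF3A2 (chr19:2236809-2236838, plus strand): tttgccccggaagtgCTTTCTTTgcccgcc
The match describes the annotated first bases and not the start used in these cells.

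In control cells the mRNAs of hnRNP proteins carried more footprints per mRNA than the median gene. Their median TE level, as log2 relative to the median gene of the same library pair, was 1.04 in replicate 1 and 0.80 in replicate 2 (0.92 ± 0.17, SD, n = 2). Of 17 hnRNP genes, 16 lay above the median gene in both replicates, as did 37.4% of all genes. The snRNP group had a median of 0.62 ± 0.16 and 25 of 40 genes above in both replicates. SR genes had a median of 0.26 ± 0.39 and 4 of 11 above in both, which does not stand apart from 0 beyond its spread. These levels compare ribo-seq and mRNA-seq reads on the same CDS, so that gene length cancels, and they carry no test. With mRNA-seq reads over the whole transcript the medians were 0.93 for hnRNP, 0.92 for snRNP and 0.12 for SR genes. The gap between hnRNP and snRNP genes thus depended on the region counted. With a mean of at least 50 counts the medians were 0.77, 0.50 and 0.29. The splicing genes together took 3.97% and 3.73% of CDS footprints in control against 2.60% and 2.50% of CDS reads in mRNA-seq, and 3.86% and 3.96% of footprints in arsenite.

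HNRNPA3, a relative of the major mRNA-binding protein hnRNP A1, had the highest mean control TE level of the hnRNP genes, with log2 values of 2.57 and 0.76 in replicates 1 and 2. HNRNPH1, which binds G-rich sequences, stood at 1.78 and 1.32, and HNRNPM at 1.65 and 1.31. The replicates of the latter genes lay close together, while HNRNPA3 was high mainly in replicate 1. HNRNPUL1, a relative of the scaffold-attachment protein HNRNPU, was the sole hnRNP gene below the median gene in both replicates (-0.995 and -0.42), and HNRNPR (0.38 and 0.36) and HNRNPH3 (0.92 and 0.33) followed it in the order.

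Among SR genes the highest mean control TE levels were those of SRSF3 (0.69 and 1.32), SRSF6 (0.59 and 1.03) and SRSF1 (-0.01 and 1.37). The lowest were SRSF11 (-0.28 and -1.03), SRSF12 (-0.11 and -0.50) and SRSF9 (-0.08 and 0.01). The wide spread of the group came with genes such as SRSF1 and SRSF2 (-0.77 and 1.36), whose level differed between replicates more than most SR genes differed from each other. In mRNA-seq of control cells 30.8% and 21.0% of SRSF1 reads fell on the CDS of the transcript used, so these levels rest on a minority of the reads.

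Within the snRNP group the U2 snRNP proteins had the highest median control TE level after replicates were averaged (0.83 ± 0.17, 11 genes, 9 above in both replicates), ahead of the 3 U1-specific genes (0.71), the Sm ring (0.61 ± 0.51, 7 genes) and the U5 and tri-snRNP proteins (0.53 ± 0.33, 8 genes). These neighbours do not differ beyond the spread of their replicates. SF3B3, a large subunit of the SF3b complex that holds the branch point, had log2 levels of 1.21 and 1.46, SNRPC of the U1 snRNP 1.90 and 0.71, and SF3B5, the small SF3b subunit, 1.05 and 1.42. At the other end stood SNRNP25 of the minor (U12-type) spliceosome (-2.44 and -1.70), PRPF40B (-1.41 and -0.85) and the Sm protein SNRPG (-0.68 and -1.29). The 3 minor-spliceosome genes had a median of -0.38 ± 0.16. For the 8 PRPF genes outside these roles it was -0.16 ± 0.24, with 3 above the median gene in both replicates. In arsenite the group medians were 0.75 ± 0.23 for hnRNP, 0.56 ± 0.20 for SR and 0.54 ± 0.13 for snRNP genes.

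**Figure D1:**
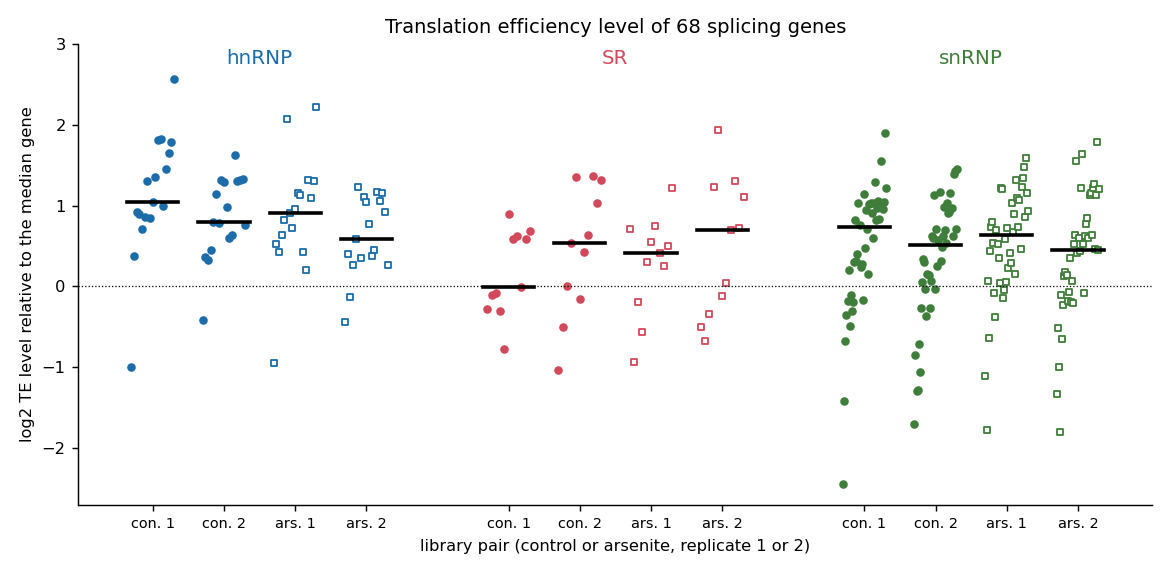
Log2 TE level of each splicing gene relative to the median gene, for control (filled circles) and arsenite (open squares) in replicates 1 and 2, with a black bar at the group median. The hnRNP bars lie above 0 in every library pair and are lower in arsenite than in control in both replicates (1.04 to 0.91, and 0.80 to 0.58).

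The mRNA of several large spliceosome components and of 5 hnRNP genes was slightly higher in arsenite. Of 68 splicing genes, 17 changed in mRNA level (edgeR, adjusted p below 0.05 over all genes), 25% of the members against 5.75% of 12573 genes tested. The 15 that rose compare with 3.76% of genes called higher, and the 2 that fell with 1.99% called lower. The members are deeply sequenced, with a median of 3599 mRNA-seq reads per library against 617 for the 10273 genes measured in both assays, and small changes are more readily called at that depth. The largest member change was 1.25-fold. Members that rose were 5 of 17 hnRNP and 10 of 40 snRNP genes, and those that fell were 2 snRNP genes of the Sm ring. No SR gene of 11 passed the test in edgeR (0 with an unadjusted p under 0.05) or in DESeq2, with log2 changes between -0.08 and 0.06. DESeq2 called 7 of the 17 (HNRNPU, HNRNPK, HNRNPL, PRPF8, SNRNP70, SF3B3 and SF3A1), and no call remained without the replicate as a block.

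The 3 highest rises were in proteins of the U5, U1 and U2 snRNPs. PRPF8, the U5 protein that cradles the catalytic centre, went from 1078 to 1367 cpm in replicate 1 and from 491 to 605 cpm in replicate 2 (log2 change 0.32 ± 0.05, SE, adjusted p = 1.66e-08). SNRNP70, which binds the first stem-loop of U1 snRNA, went from 192 to 253 cpm and from 245 to 296 cpm (0.31 ± 0.05, adjusted p = 6.56e-07). SF3A1, a subunit of the SF3a complex of the U2 snRNP, went from 206 to 243 cpm and from 197 to 250 cpm (0.31 ± 0.05, adjusted p = 7.33e-07). Arsenite was above control within both replicates for each gene, and the replicates of PRPF8 differed most in baseline.

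Other U2 genes were also called higher, although not all U2 genes rose. SF3B3 mRNA was at 631 and 329 cpm in control and at 748 and 413 cpm in arsenite (log2 change 0.29, adjusted p = 7.14e-07). SF3B2, which contacts RNA near the branch point, was at 522 and 262 cpm and then at 596 and 314 cpm (0.23, adjusted p = 0.000321). SF3A2 went from 74.5 and 63.5 cpm to 85.1 and 72.9 cpm (0.20, adjusted p = 0.0498), just past the threshold, and it lost the call under upper-quartile normalization, in DESeq2, without a filter and with CDS reads alone. In all, 4 of 11 U2 genes rose, 7 were above 0 in both replicates and 3 were below 0 in both. The lowest U2 gene was SF3B5 (-0.16, adjusted p = 0.0612 in edgeR), a change of like size to those of the Sm genes below. With upper-quartile normalization SF3B5 was called lower.

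Among U5 and tri-snRNP proteins 4 of 8 rose. Besides PRPF8 these were SNRNP200, the helicase that unwinds U4 from U6 (600 and 434 cpm in control, 711 and 492 cpm in arsenite, log2 change 0.21), PRPF6, a bridging protein of the tri-snRNP (133 and 76.3 cpm, then 150 and 90.4 cpm, 0.22), and PRPF3 of the U4/U6 snRNP (91.3 and 76.3 cpm, then 115 and 88.0 cpm, 0.24). Their adjusted p-values ran from 0.00156 to 0.00816. PRPF19, a ubiquitin ligase and scaffold of the complex that bears its name, went from 327 and 259 cpm to 377 and 286 cpm (0.17, adjusted p = 0.0239).

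The Sm proteins, small subunits that form the ring on every Sm-class snRNA, pointed the other way. All 7 were below 0 in both replicates (median log2 change -0.14), against 3849 of 12573 genes tested. SNRPG went from 235 and 306 cpm to 192 and 274 cpm (log2 change -0.20 ± 0.05, adjusted p = 0.0052), and SNRPE from 291 and 378 cpm to 262 and 338 cpm (-0.16 ± 0.05, adjusted p = 0.0443). The other 5 ran from -0.15 (SNRPF) to -0.02 (SNRPB) and were not past the threshold. With DESeq2 neither SNRPG (adjusted p = 0.31) nor SNRPE was past it. SNRPE was also not past it without a filter on low counts, with the alternative transcript or with CDS reads alone.

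The hnRNP genes with a raised mRNA were HNRNPU, HNRNPL, HNRNPM, HNRNPK and HNRNPA0. HNRNPU, which binds nuclear scaffold and chromatin RNA, went from 1615 and 1212 cpm to 1895 and 1453 cpm (log2 change 0.25, adjusted p = 3.65e-05). HNRNPL, a binder of CA repeats, went from 637 and 468 cpm to 741 and 565 cpm (0.25, adjusted p = 5.07e-05). Both were higher by a like amount in each replicate.

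HNRNPM was at 681 and 520 cpm in control and at 749 and 616 cpm in arsenite (log2 change 0.20, adjusted p = 0.00326). HNRNPK, a binder of C-rich sequences, was at 1199 and 1055 cpm and then at 1368 and 1210 cpm (0.19, adjusted p = 0.00334). HNRNPA0 was at 285 and 357 cpm and then at 300.4 and 418 cpm (0.17, adjusted p = 0.0224), with most of the rise in replicate 2 (0.23 against 0.08). With CDS reads alone 12 of the 17 members were called, and HNRNPA0 (adjusted p = 0.27), PRPF6 (0.11) and PRPF19 (0.107) were no longer past the threshold, like SF3A2 and SNRPE. The other 12 hnRNP genes lay between -0.09 and 0.20 without passing the threshold, and the group median was 0.08 against -0.01 for all genes.

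**Figure D2:**
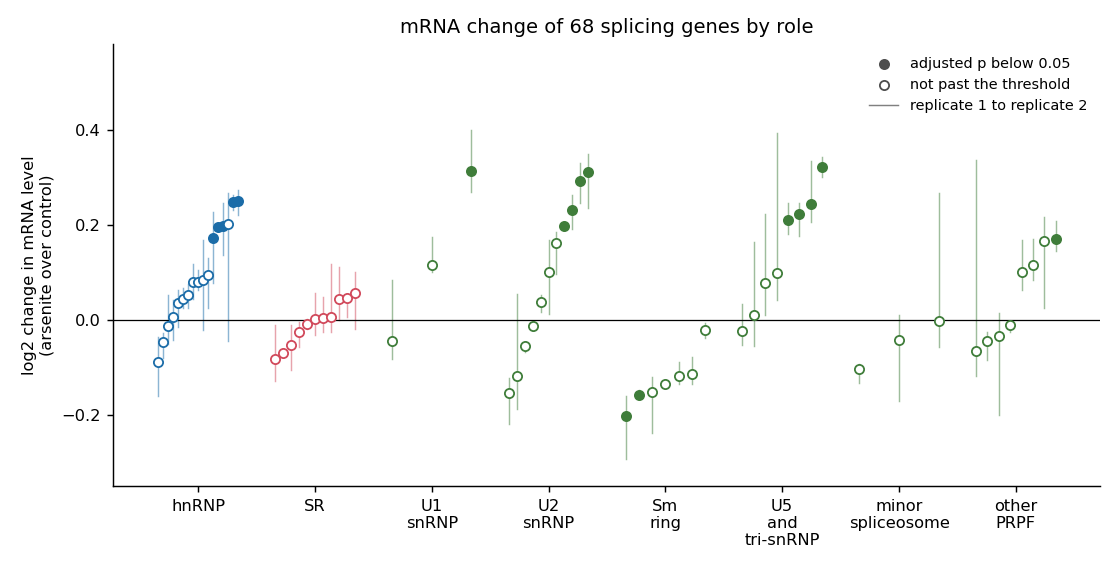
Log2 change in mRNA level (arsenite over control) for each of 68 splicing genes, grouped by role. Circles show the edgeR estimate, filled where the adjusted p is below 0.05, and vertical lines join the values of replicates 1 and 2. All 7 Sm genes lie below 0 and PRPF8 at 0.32 is the highest gene.

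Relative to the other genes, ribosome occupancy rose in 3 of 68 members (4.41%) and fell in none. Of 10291 genes tested, 1.38% were called higher, 1.30% lower and 2.68% in either direction. SRSF2, an SR protein that binds exonic enhancers (NM_001195427), went from 188 to 438 footprint cpm in replicate 1 and from 666 to 1007 cpm in replicate 2 (log2 change 0.89 ± 0.19, adjusted p = 0.017). SF3A2 (NM_007165) went from 77.4 to 149 cpm and from 162 to 255 cpm (0.78 ± 0.19, adjusted p = 0.0292). SRSF11 (NM_004768), an SR-related protein that binds U2 auxiliary factor, went from 291 to 557 cpm and from 158 to 232 cpm (0.74 ± 0.18, adjusted p = 0.0299). In each of these genes arsenite exceeded control within both replicates, more so in replicate 1, but the replicates differed so much in baseline that the ranges of control and arsenite overlapped for all 3. With DESeq2 the sole gene past the threshold was SRSF2, and without the replicate block 0 passed. No decrease passed the test in the edgeR fit above or in DESeq2, although SNRPD2 was called lower by edgeR without a filter on low counts and with a mean of at least 50 counts. In either direction 17 of 68 members had an unadjusted edgeR p under 0.05, beside 1811 of 10291 genes tested. The largest decreases were in SNRPD2 (-0.58, adjusted p = 0.0844), SNRPC (-0.53, adjusted p = 0.127) and HNRNPA0 (-0.49, adjusted p = 0.17).

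By group the median occupancy change was -0.14 for hnRNP, 0.02 for SR and 0.09 for snRNP genes, beside 0.00 for all genes. Of 17 hnRNP genes, 10 were below 0, and 9 of them in both replicates. Over all 10291 genes tested, 5177 were below 0, and 3174 were below 0 in both replicates. As a share of all CDS footprints, hnRNP genes took 2.16% in control and 1.87% in arsenite in replicate 1 (95% Wilson intervals 2.14 to 2.18% and 1.84 to 1.90%). In replicate 2 the shares were 1.893% and 1.829% (intervals 1.883 to 1.903% and 1.814 to 1.844%). Their share of mRNA-seq CDS reads was higher in arsenite, 1.10% against 1.16% in replicate 1 and 1.16% against 1.27% in replicate 2. For SR genes the footprint share went from 0.350% to 0.428% and from 0.463% to 0.476%, and for the snRNP group from 1.46% to 1.56% and from 1.37% to 1.65%. These shares pool the reads of a group, so single genes with many footprints weigh heavily in them. SRSF2 held 326 of 6616 and 5122 of 33326 SR footprints in control, and 411 of 4351 and 3284 of 14157 in arsenite. HNRNPA2B1 held 10045 of 40817 and 26064 of 136241 hnRNP footprints in control, and 3717 of 19006 and 9820 of 54408 in arsenite. The intervals cover counting error only, since reads without molecular identifiers are not independent molecules.

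None of the members with most footprints, other than SRSF2, passed the test for occupancy. HNRNPA2B1, which sorts RNAs for transport as well as splicing, had 5805 and 3391 cpm in control and 3959 and 3011 cpm in arsenite (log2 occupancy change -0.36, adjusted p = 0.318). HNRNPU had 3392 and 2399 cpm and then 3533 and 2487 cpm (0.06), and HNRNPK 2587 and 2161 cpm and then 2800 and 2108 cpm (0.04). PRPF8 had the most in the snRNP group, with 1407 and 1535 cpm in control and 1972 and 2607 cpm in arsenite (0.63, adjusted p = 0.0655). It was above control in both replicates and passed the threshold with upper-quartile normalization and with either of the other count filters. SNRNP200 (1197 and 1210 cpm, then 1354 and 1466 cpm) and SF3B3 (1478 and 1029 cpm, then 1436 and 1094 cpm) differed by less than 0.25 on the log2 scale.

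Of the SR genes with most footprints besides SRSF2, SRSF3, the smallest of the classical SR proteins, went from 839 to 1253 cpm in replicate 1 and from 825 to 690 cpm in replicate 2. SRSF1, the founding member that also promotes export and translation, went from 317 to 358 cpm and from 691 to 640 cpm. For both genes the replicates pointed in opposite directions, with log2 changes of 0.16 and 0.02.

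No member passed the test for a TE change (0 of 68 in edgeR, against 2.11% of 10273 genes, of which 1.03% were higher and 1.08% lower). An unadjusted edgeR p under 0.05 was found in 19 of the 68 members, beside 2181 of the 10273 genes. DESeq2 called 0 members, with 15 under an unadjusted 0.05. Nearest to the threshold were SRSF11 (adjusted p = 0.0519), PRPF4B (adjusted p = 0.0565) and SRSF2 (adjusted p = 0.0641), all toward higher TE. SRSF11 and SRSF2 passed when no filter on low counts was applied. The median SE of a member's log2 change was 0.16 in TE and 0.18 in occupancy against 0.05 in mRNA, so changes of the size called in mRNA could not be detected in TE at this depth.

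The hnRNP genes lay on the lower side of all genes in TE. Of 17, 14 had a log2 TE change below 0, and 13 were below 0 in both replicates, against 3237 of 10273 genes tested. Their median was -0.23 (-0.29 within replicate 1 and -0.22 within replicate 2), beside -0.03 for SR genes, 0.05 for the snRNP group and -0.01 for all genes. The genes were measured in the same libraries and are not replicates of the condition, and no test of the group was made. In both replicates the hnRNP median was lower than those of SR and snRNP genes.

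The lowest hnRNP values were those of HNRNPA0, HNRNPH3 and HNRNPA2B1. HNRNPA0, whose annotated start opens with the 6-base pyrimidine run shown above, had 304 and 553 footprint cpm in control and 174 and 472 cpm in arsenite while its mRNA rose (log2 TE change -0.63 ± 0.20, adjusted p = 0.116). HNRNPH3 had 416 and 335 cpm and then 312 and 231 cpm (-0.48 ± 0.15, adjusted p = 0.116), with mRNA of 316 and 372 cpm in control and 328 and 359 cpm in arsenite. For HNRNPA2B1 the TE change was -0.44 ± 0.16 (adjusted p = 0.152), with mRNA of 2083 and 2821 cpm and then 2257 and 2908 cpm. In each of these genes the footprint level was lower in arsenite in both replicates. Values of like size came from HNRNPA3 (-0.41), HNRNPD (-0.41) and HNRNPH1 (-0.39), each below 0 in both replicates.

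HNRNPA1 (-0.31) rests on 6 and 166 footprints in arsenite and is uncertain for the reason given above. At the upper end were HNRNPUL2 (0.18), HNRNPR (0.11) and HNRNPUL1 (0.01). HNRNPUL2 had 18.5 and 22.1 footprint cpm in control and 34.1 and 24.8 cpm in arsenite, and its replicates pointed in opposite directions (0.93 and -0.09). Footprints of HNRNPR were at 533 and 693 cpm and then at 658 and 739 cpm, and those of HNRNPUL1 at 239 and 317 cpm and then at 242 and 318 cpm.

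**Figure D3:**
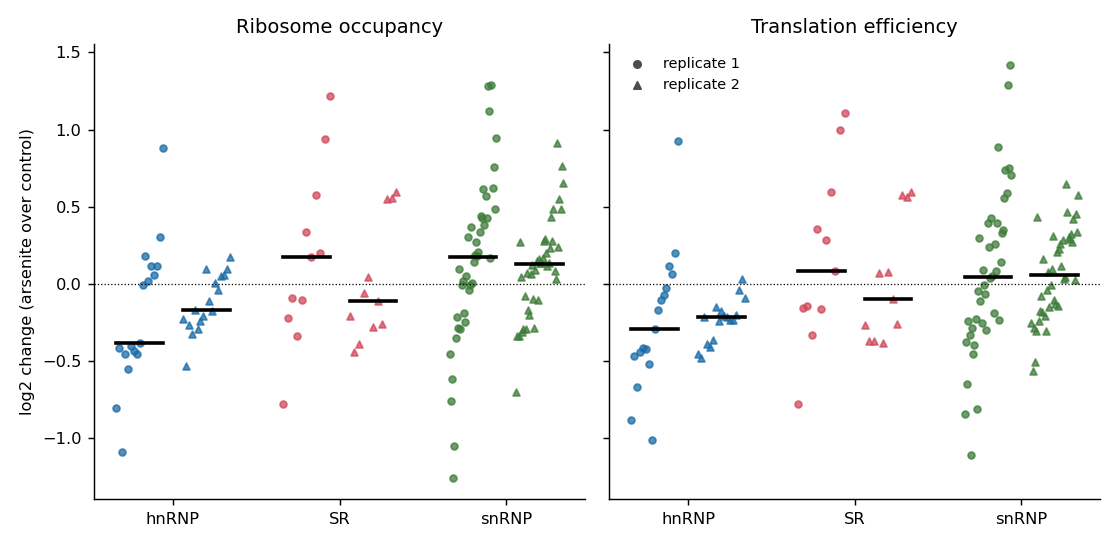
Log2 change in ribosome occupancy (left) and TE (right), arsenite over control, for each splicing gene within replicate 1 (circles) and replicate 2 (triangles), with a black bar at the median. The hnRNP medians are below 0 in both replicates for both measures, -0.38 and -0.17 for occupancy and -0.29 and -0.22 for TE.

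SR genes spread widely around 0. SRSF2 (log2 TE change 0.82 ± 0.20) and SRSF11 (0.77 ± 0.17) were highest, with fitted mRNA changes of 0.04 and -0.03. Their mRNA was at 454 and 666 cpm in control and 490 and 665 cpm in arsenite for SRSF2, and at 369 and 477 cpm and then 354 and 476 cpm for SRSF11. SRSF8, a copy of SRSF2 without introns, came next at 0.48 ± 0.18 (adjusted p = 0.174), with 15 and 42.9 footprint cpm in control and 17 and 62.8 cpm in arsenite. SRSF8 resembles SRSF2 in sequence, and only reads that tell the pair apart were counted.

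The lowest SR genes were SRSF12, SRSF9 and SRSF6, at -0.41, -0.28 and -0.26, with adjusted p-values of 0.34 to 0.473. SRSF9 had 295 and 356 footprint cpm in control and 254 and 261 cpm in arsenite, SRSF6 505 and 404 cpm and then 473 and 308 cpm, and SRSF12 11.6 and 8.98 cpm and then 6.39 and 7.66 cpm. All 3 were lower in arsenite in both replicates. SRSF12 is sparsely expressed, and its SE of 0.31 is the widest of these.

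In the snRNP group PRPF4B, a kinase that phosphorylates tri-snRNP proteins, had the highest TE change (0.63 ± 0.15). Its footprints went from 179 to 275 cpm and from 130 to 190 cpm, while its mRNA was at 233 and 254 cpm in control and 219 and 250 cpm in arsenite. SNRNP25 followed at 0.56 ± 0.25 (adjusted p = 0.235), with 10.4 and 19.3 footprint cpm and then 25.6 and 22.7 cpm, and SF3A2 at 0.56 ± 0.16 (adjusted p = 0.0892). PRPF4B differed by a like amount in both replicates, while SNRNP25 did so mainly in replicate 1 (1.42 against 0.34). With SNRNP48 (0.54) and SNRNP35 (0.33), the 3 minor-spliceosome genes were above 0 in both replicates, but SNRNP48 by only 0.02 in replicate 2.

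SNRPC, SNRPD2 and SNRNP40 were the lowest of the snRNP group. SNRPC had 268 and 305 footprint cpm in control and 158 and 241 cpm in arsenite (log2 TE change -0.50 ± 0.18, adjusted p = 0.152). SNRPD2 had 561 and 489 cpm and then 408 and 301 cpm (-0.48 ± 0.16, adjusted p = 0.125), and SNRNP40, a U5 protein with WD repeats, 391 and 250 cpm and then 255 and 198 cpm (-0.45 ± 0.16, adjusted p = 0.148). All were lower in arsenite in both replicates. The Sm ring as a whole had no shared direction, as SNRPG lay at 0.48 and SNRPE at -1.11 in replicate 1 but 0.43 in replicate 2.

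The 5 genes with a TOP-like annotated start had a median log2 TE change of -0.28, and 4 of them were below 0 (HNRNPA0, SNRPD2, SRSF9 at -0.28 and SNRPA at -0.26). SF3A2, at 0.56, was the exception. The other 55 genes had a median of -0.04. Over all 8560 genes the medians were -0.11 for 674 genes with such a start and -0.01 for the rest. Of those 674 genes, 401 were below 0. The pattern was chosen with the values known and was not tested.

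**Figure D4:**
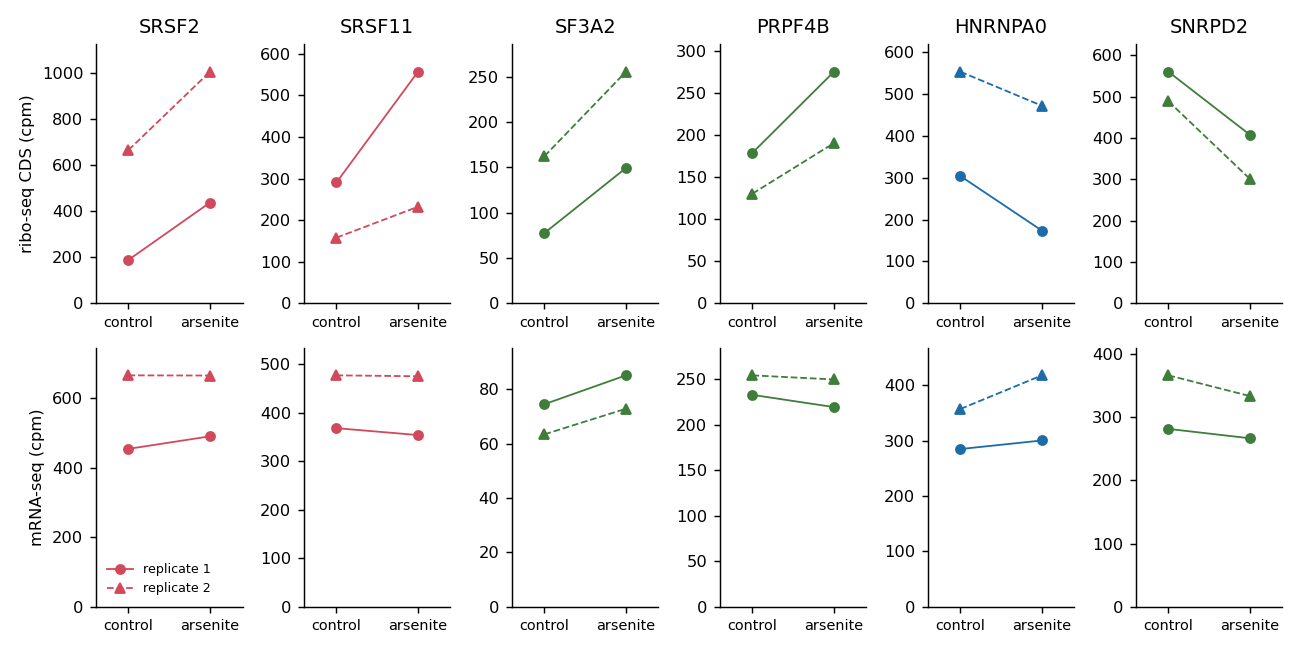
Normalised ribo-seq CDS reads (top) and mRNA-seq reads (bottom), in cpm, for 6 splicing genes in control and arsenite. Circles with solid lines are replicate 1 and triangles with dashed lines replicate 2. Footprints of SRSF2, SRSF11, SF3A2 and PRPF4B are higher and those of HNRNPA0 and SNRPD2 lower in arsenite in both replicates, while mRNA levels differ far less.

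Footprints on 5′ leaders were few and took a larger share in arsenite, as they did across all genes. On the splicing genes the leader held 0.230% and 0.700% of ribo-seq reads in control and 0.481% and 1.48% in arsenite, against 0.380% and 0.777% and then 0.476% and 1.48% over all genes. The shares of hnRNP genes went from 0.235% to 0.617% and from 0.782% to 1.80%, those of SR genes from 0.301% to 0.501% and from 0.873% to 1.73%, and those of the snRNP group from 0.173% to 0.220% and from 0.506% to 1.01%. In replicate 1 these shares rest on 173 leader reads in control and 190 in arsenite over all members.

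With a mean of at least 10 leader reads, 26 members could be tested for a shift from CDS to leader, and 0 passed in edgeR, against 0.157% of 636 genes tested. An unadjusted edgeR p under 0.05 was found in 14 of the 26 members, beside 193 of the 636 genes. The shift was above 0 in 25 of 26, beside 534 of 636 genes. The median log2 shift was 1.47 in 11 hnRNP, 0.68 in 5 SR and 1.22 in 10 snRNP genes, and 0.82 over all genes. The sole member below 0 was SNRPG (-0.11). The smallest adjusted p was 0.0747, shared by SF3B3 (1.96), HNRNPH3 (2.09), HNRNPC (1.75) and HNRNPA2B1 (1.47).

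Among members with a mean of at least 10 leader reads, the largest mean leader shares belonged to SRSF8, SNRPA and SNRPF. In SRSF8 the leader held 6.90% and 5.41% of reads in control and 15.8% and 10.3% in arsenite, from 2 to 24 leader reads per library. SNRPA, a U1 protein, had 1.71% and 1.83% and then 8.93% and 4.43%, from 2 to 36 reads. SNRPF had 1.59% and 2.53% and then 4.90% and 4.91%, from 5 to 46 reads. In all 3 the leader share was higher in arsenite in both replicates. SNRNP25, with a mean of 5.5 leader reads, had shares of 18.2% and 5.73% in control and 4% and 9.64% in arsenite, from 1 to 9 reads.

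**Figure D5:**
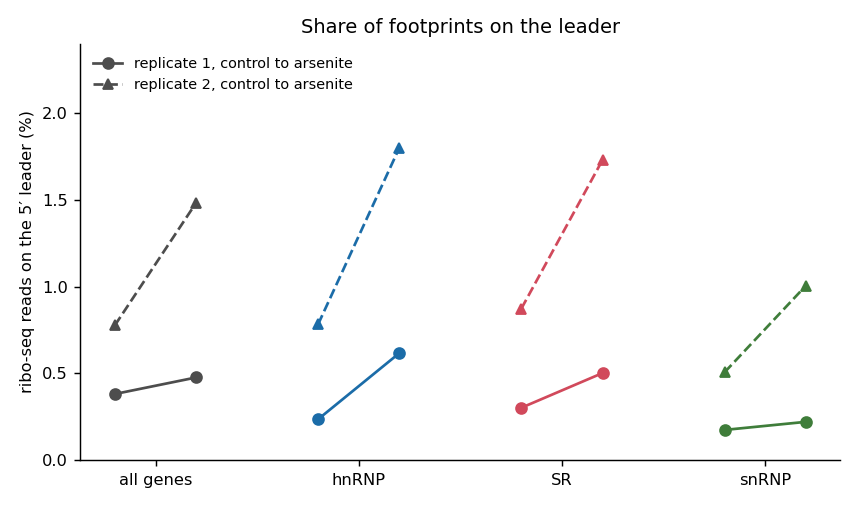
Share of ribo-seq reads on the 5′ leader (percent of the reads on the transcripts of each group), control joined to arsenite, in replicate 1 (circles) and replicate 2 (triangles). The share is higher in arsenite in every group and replicate, and all genes go from 0.777% to 1.48% in replicate 2.

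Other splicing factors outside the naming rule were taken as 117 genes in 7 lists, of which 113 were tested in mRNA and 110 in occupancy and TE. Their mRNA rose in 18 and fell in 2, beside 3.76% of all genes tested called higher and 1.99% called lower. Among the highest were ACIN1 of the exon junction complex periphery (0.40), the SR-related SRRM1 (0.33) and the RNA-binding proteins KHSRP (0.30) and SFPQ (0.29). The pair that fell were small tri-snRNP proteins, TXNL4A (-0.25) and NHP2L1 (-0.21). By list, rises were found in 2 of 13 U2 auxiliary and branch point, 0 of 7 Sm-like and U6, 3 of 12 tri-snRNP, 2 of 22 catalytic, 1 of 8 exon junction, 4 of 19 SR-related and 6 of 32 hnRNP-type genes.

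TE changed past the threshold in 7 of these 110 genes, beside 2.11% of all genes tested (1.03% higher and 1.08% lower). With 1 replicate block shared by both assays, or with none, 0 of 10273 genes passed, these 7 included. SLU7, a second-step splicing factor, rose by 1.26 and SON, a scaffold of nuclear speckles, by 0.92 on the log2 scale. PCBP2 (-1.33), RBMX (-1.08), KHSRP (-0.99) and ELAVL1 (-0.70), all from the list of hnRNP-type regulators, and the helicase DHX38 (-0.72) fell. Beside 1.38% of all genes tested called higher and 1.30% called lower, occupancy rose in SLU7 (1.28), SON (0.90), SREK1 (0.89), RBM25 (0.82) and ACIN1 (0.73) and fell in PCBP2 (-1.20), RBMX (-0.99) and KHSRP (-0.70). The hnRNP-type list had a median TE change of -0.22 with 0 rises and 4 falls among 32, and the SR-related list 0.19 with 1 rise and 0 falls among 19.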

How the data were processed

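The deposited values are whole-number counts of reads per transcript, and the authors split those of coding transcripts into leader, CDS and 3′ UTR. Per the methods and the submitters' processing notes, adapters were removed with Cutadapt, spike-in and rRNA reads were set aside, and the rest was aligned to RefSeq transcripts with Bowtie 1.0.0 on the sense strand. Reads of more than 1 gene were discarded, and no normalization was applied.

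Per gene, the transcript with most CDS reads over both control ribo-seq libraries was used, since transcript lengths were not used here. Genes tested for mRNA or occupancy needed a mean of at least 10 counts in that assay. Members, and genes tested for TE, needed it in both assays. Changes were tested with edgeR 4.0.16 (R 4.3.3; quasi-likelihood, TMM, Benjamini-Hochberg over all genes tested, threshold 0.05). mRNA level used reads over the transcript, occupancy CDS footprints, TE the interaction of assay and treatment with a replicate block per assay, and the leader shift the interaction of region and treatment. Cpm used TMM library sizes, and changes within a replicate a prior count of 0.5. An exact test of 2 against 2 cannot go below p = 0.333.

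The replicate entered as a block, because replicates differed in adapter and sequencing. Libraries of the same replicate deviated together (correlations of 0.768 for ribo-seq, over 7678 genes, and 0.861 for mRNA-seq, over 11044). Alternatives were upper-quartile normalization, DESeq2 1.42.0, other count filters, no block, 1 block shared by both assays, another transcript, other read regions and leaving out a replicate. On simulated counts 198 of 200 changed genes were recovered for RNA (12508 genes), 174 of 198 for occupancy (10182) and 173 of 198 for TE (10181). Of the unchanged genes 1, 13 and 13 were called. The planted changes were larger than any member change and the dispersions were set by hand. The recovery therefore does not apply to changes of the size seen in members.

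Every member was accounted for. Named with values were members past the threshold, the 3 highest and lowest per group in TE change and in control TE, the 3 per group with most control footprints, and the 3 with the largest leader share among those with a mean of at least 10 leader reads. From the wider lists, at most 5 per direction were named, of which 1 is not reported here. Members and lists were chosen with earlier results of these data known. Tables were handled with Python 3.11.15 and pandas 2.3.3 and figures drawn with matplotlib 3.10.9.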

Additional observations from a re-analysis of the deposited data

How the results depend on the processing

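The number of members called depended on the settings. Without the replicate block no member was called in mRNA, occupancy or TE (0 in each), nor was any of the other genes tested. In mRNA level DESeq2 called 7 members in place of 17, with 8 members given no adjusted p, and all 7 were among the 17. With CDS reads alone it was 12. In occupancy, where the main count was 3, upper-quartile normalization and no filter on low counts each called 6, a mean of at least 50 counts called 8, and DESeq2 called 1. The main 3 were among those 6, 6 and 8, and each of the other count filters called 1 decrease (SNRPD2). In TE, where it was 0, 1 block shared by both assays also called 0, of members and of all genes, and no filter on low counts called 2. The leader shift gave 0 under both alternatives. With single replicates the median log2 mRNA change of the snRNP group ran from 0.0096 to 0.068, and the median occupancy change of hnRNP genes from -0.38 to -0.17. The 20 single-gene calls kept their direction under every alternative fit, and in 41 refits they were not past the threshold, 20 of them without the block and 12 with DESeq2. With 2 libraries per group and 1023774 reads in the shallowest ribo-seq library, small TE changes could not be detected.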

Other observations

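Footprints on 3′ UTRs of the splicing genes took a larger share of their ribo-seq reads in arsenite, from 0.0465% to 0.134% in replicate 1 (35 and 53 reads) and from 0.133% to 0.467% in replicate 2 (361 and 561 reads). Over all genes the share went from 0.102% to 0.200% and from 0.200% to 0.748%.

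Non-coding RNAs that carry the names of these genes were counted in 16 further transcripts. HNRNPU-AS1, read from the strand opposite HNRNPU, had 336 and 4662 control mRNA-seq reads (301 and 5146 with arsenite), but only 2 and 3 control ribo-seq reads (0 and 2 with arsenite). The non-coding variant of SRSF2 held 326 and 5202 ribo-seq reads in control, beside 327 and 5203 over the whole of the coding transcript used. Reads shared between variants of 1 gene were counted for each, so the variants cannot be told apart by these counts.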
